A study of Mus musculus with 8 samples.

Results

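Transcripts of the exocrine pancreas were followed across 8 whole-liver samples: the digestive enzymes Cela2a, Cela1, Ctrb1, Prss2, Cpa1, Cel, Pnlip and Amy2a5, the lipase cofactor Clps, and the secreted lectin Reg1. They were chosen by their measured levels on these same arrays, which earlier results had shown to vary strongly within a genotype, and every probe that the array annotation assigns to 1 of the 10 symbols was taken. 9 of the 10 genes had a named probe, 11 probes among the 25697 on the array, which name 16593 genes. Pnlip, pancreatic lipase, had none and was not analysed here. Their levels, spread and correlations are therefore given as a description without a test.

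The livers came from female C57BL/6 mice (C57BL/6J in the design text), as 4 replicates carrying the ΔF508 mutation of Cftr (CF) and 4 replicates of their wild-type (WT) littermates. Cftr encodes the epithelial chloride and bicarbonate channel that is defective in cystic fibrosis. All mice were 3 weeks old, had been weaned at day 21 onto an enriched diet with a diluted laxative of polyethylene glycol and electrolytes (Colyte) to drink, and were killed at day 23. Both genotypes therefore share the diet and the laxative, and the Cftr change was not limited to the liver. Biotin-labelled cRNA from frozen whole liver was hybridised to single-colour bead arrays, and values are quantile-normalised log2 signals, which carry no read depth. Nothing in the labels says that the replicates of a genotype came from separate animals, so p-values measure the spread between these 8 samples, which may be partly technical.

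The acinar cells of the pancreas make and store most of the protein that digests food. Proteases are made as inactive zymogens, packed into granules and released into the duct, and they become active in the gut. In mouse acinar cells many of these genes are driven by PTF1, a complex of PTF1A, an E protein and RBPJL (or RBPJ) that binds an E-box beside a TTTCCC-type box. Hepatocytes make few of these enzymes, although amylase of the salivary and liver type, Amy1, is a normal liver transcript.

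Promoter sequences are shown for 4 of the genes because the members moved together over the arrays, and because they include the gene that followed the others least closely (Cela1) and the gene that lacks an E-box of the searched kind (Reg1). Each is the 250 bases before the annotated start, from RefSeq on GRCm38.p6, written 5′ to 3′ on the strand of the gene. Capitals mark the E-boxes CACCTG, its reverse complement CAGGTG, and CAGCTG, and the box TTTCCC or its reverse complement GGGAAA. None of these motifs overlap here.
Cela1, chr15:100687921-100688170, minus strand: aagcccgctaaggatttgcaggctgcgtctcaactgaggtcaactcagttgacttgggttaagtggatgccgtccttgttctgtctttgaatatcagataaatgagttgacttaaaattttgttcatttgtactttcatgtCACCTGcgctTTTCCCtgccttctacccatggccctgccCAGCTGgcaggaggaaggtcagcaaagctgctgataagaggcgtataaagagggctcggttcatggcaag
Ctrb1, chr8:111691011-111691260, minus strand: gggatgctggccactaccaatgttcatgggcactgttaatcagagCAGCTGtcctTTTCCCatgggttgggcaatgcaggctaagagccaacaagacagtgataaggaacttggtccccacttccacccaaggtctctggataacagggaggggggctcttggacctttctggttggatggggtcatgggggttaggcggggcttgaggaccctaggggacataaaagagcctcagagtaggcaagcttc
Cel, chr2:28563404-28563653, minus strand: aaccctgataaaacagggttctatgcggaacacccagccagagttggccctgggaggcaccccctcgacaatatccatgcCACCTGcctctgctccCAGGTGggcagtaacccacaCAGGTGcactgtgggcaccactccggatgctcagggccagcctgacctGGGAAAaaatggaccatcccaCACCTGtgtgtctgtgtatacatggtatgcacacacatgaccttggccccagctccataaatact
Reg1, chr6:78425733-78425982, plus strand: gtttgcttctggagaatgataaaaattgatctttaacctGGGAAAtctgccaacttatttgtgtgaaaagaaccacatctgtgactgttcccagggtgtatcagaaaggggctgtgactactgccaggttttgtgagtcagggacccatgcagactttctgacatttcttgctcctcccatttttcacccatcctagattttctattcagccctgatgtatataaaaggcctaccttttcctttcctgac
In the Cela1 and Ctrb1 promoters an E-box stood 4 bases from a TTTCCC box, starting at -109 and -99 in Cela1 and at -205 and -195 in Ctrb1, counted from the start of transcription. Cel had 4 E-boxes and 1 GGGAAA, 15 bases from the nearest E-box. Over windows of 300 bases, 250 before and 50 after the start, 8 of the 9 measured genes had an entry, and Clps had none. The E-box letters occurred in 7 of these 8 and TTTCCC in all 8, and 7 held both. Pnlip, the member without a probe, held neither in its window. The nearest pair of boxes lay 128 bases apart in Cela2a, 162 in Amy2a5, 53 in Prss2 and 15 in Cpa1. Both E-boxes of Cpa1, at 3 and 23, and the TTTCCC of Amy2a5, at 37, lay after the start. Among all 32851 promoters of the table, 32.9% held the E-box letters, 25.2% held TTTCCC and 8.16% held both. A match is a description of the letters, not a site shown to be bound.

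2 of the arrays stood apart in pancreatic transcripts and 1 in kidney transcripts. CF 1 and WT 3, 1 of each genotype, carried the highest level of each of the 9 genes. WT 4, the array lowest in most of them, carried kidney transcripts instead: Kap, a kidney androgen-regulated protein, was at 12.42 in WT 4 against 6.14 to 6.48 on the other 7 arrays. The arrays fitted their liver label, with Apoa1, the main HDL apolipoprotein, at 14.28 to 14.47 in CF and 14.20 to 14.46 in WT livers, and a mean of the 12 hepatocyte markers of 12.20 to 12.30 in CF and 12.17 to 12.26 in WT. The Alb probe was dim for such an abundant transcript, at 7.80 to 8.06 in CF and 7.82 to 8.13 in WT, and the Fgb probe lay under background on all arrays. The Cftr probe also lay under the background level, 6.45, on all 8 arrays (5.89 to 6.13 in CF, 6.06 to 6.14 in WT), so it did not check the genotype labels.

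Among the proteases, Cela2a, a pancreatic elastase, had log2 levels of 13.31, 12.00, 9.83 and 8.71 in CF livers 1 to 4, and of 9.88, 11.37, 14.09 and 7.74 in WT livers 1 to 4. Its highest array exceeded its lowest 81.4-fold, both of them WT. The 2 genotypes overlapped over almost their whole range. Ctrb1, chymotrypsinogen B, stood at 12.75, 9.90, 7.49 and 6.74 in CF and 7.44, 8.84, 12.16 and 6.44 in WT livers. Prss2, an anionic trypsinogen, stood at 11.54, 8.99, 7.07 and 6.48 in CF and 6.88, 8.01, 11.25 and 6.03 in WT livers. In these 2 genes CF 1 was the highest array and WT 3 the next, and WT 4 lay under background, so the span was at least 79.1-fold for Ctrb1 and at least 34.1-fold for Prss2. The mouse trypsinogens are a family of near-identical genes, and the Prss2 signal cannot be assigned to that gene alone.

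Cpa1, carboxypeptidase A1, which trims amino acids from the carboxyl end of peptides, stood at 11.15, 9.07, 7.13 and 6.47 in CF and 7.41, 8.22, 11.72 and 6.07 in WT livers. WT 3 was highest and WT 4 under background, a span of at least 38.7-fold. Cela1, the elastase 1 gene, which is also transcribed outside the pancreas in the mouse, stood at 11.21, 10.64, 9.14 and 8.62 in CF and 9.67, 10.34, 13.37 and 9.95 in WT livers. Its highest array was WT 3 like that of Cpa1, but its lowest was CF 4, 27.0-fold below, and WT 4 ranked in the middle.

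The lipid-digesting genes took the same course. Cel, the bile salt-stimulated carboxyl ester lipase, stood at 11.00, 8.96, 7.53 and 6.57 in CF and 7.30, 8.31, 11.81 and 6.37 in WT livers. Clps, colipase, which anchors pancreatic lipase to fat droplets, stood at 12.24, 10.88, 8.65 and 7.35 in CF and 8.72, 9.91, 13.01 and 6.41 in WT livers. WT 3 was the highest array for both, and WT 4 was under background on both probes, with spans of at least 41.0-fold for Cel and at least 94.4-fold for this Clps probe. A second, dimmer Clps probe was above background on all arrays and spanned 36.7-fold, with 11.04, 9.33, 7.64 and 6.83 in CF and 7.46, 8.49, 11.93 and 6.74 in WT livers, with the same 2 arrays on top.

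Amy2a5, pancreatic amylase, stood at 11.32, 10.15, 10.62 and 8.21 in CF and 8.55, 9.17, 12.71 and 8.04 in WT livers. It was the gene in which CF 3 exceeded CF 2, and its second, dimmer probe gave the same order there (8.99, 7.69, 8.53 and 6.67 in CF, 6.50, 7.01, 10.71 and 6.18 in WT). The pancreatic amylase genes lie in a cluster of near-identical copies, so the signal stands for the group. Amy1, by contrast, was nearly level, at 10.56, 10.69, 10.74 and 10.16 in CF and 10.45, 10.39, 10.79 and 10.37 in WT livers. Reg1, a lectin-like protein that acinar cells secrete in quantity, stood at 13.11, 11.19, 9.29 and 8.01 in CF and 8.99, 10.002, 13.33 and 7.28 in WT livers. Its top array was WT 3 by 0.22 over CF 1, and its bottom array was WT 4, 66.5-fold below.

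**Figure D1:**
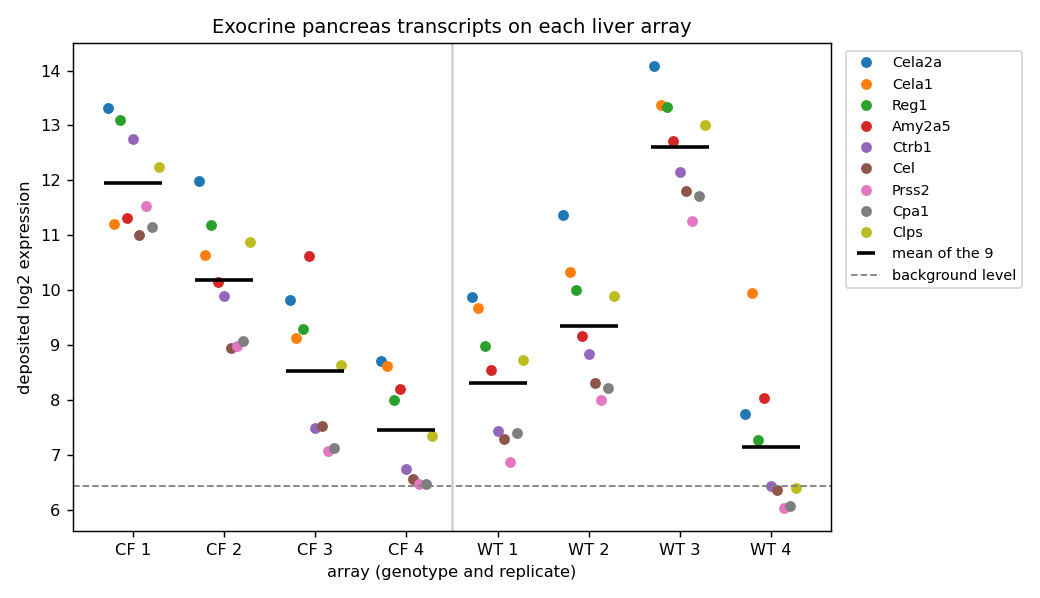
Log2 level of the 9 exocrine pancreas genes on each of the 4 CF arrays and the 4 WT arrays, as points, with the mean of the 9 as a bar and the background level of 6.45 as a dashed line. In every gene the 2 highest arrays are CF 1 and WT 3, and the CF and WT arrays overlap.

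The mean over the 9 genes, called the member level here, was 11.96, 10.20, 8.53 and 7.46 in CF livers and 8.32, 9.35, 12.61 and 7.15 in WT livers. From high to low the arrays ran WT 3, CF 1, CF 2, WT 2, CF 3, WT 1, CF 4, WT 4, a graded series in which the genotypes mixed. Each array had 1 value per gene, so neighbours in this order can be compared only by how many genes take it. CF 1 exceeded CF 2, CF 2 exceeded WT 2, and WT 1 exceeded CF 4 in 9 of 9 genes. WT 2 exceeded CF 3 and CF 4 exceeded WT 4 in 8 of 9, and WT 3 exceeded CF 1 in 7 of 9. CF 3 exceeded WT 1 in 5 of 9 genes, with a mean gap of 0.21, so these arrays were not ordered. All 11 probes were above background on 7 arrays and 5 of 11 on WT 4, against 50.9% of all probes on every array. On WT 4 these were Cela2a (7.74), Cela1 (9.95), Reg1 (7.28), the brighter Amy2a5 probe (8.04) and the dimmer Clps probe (6.74). That count is near the share of all probes, so it does not by itself show pancreatic transcripts in WT 4. In total RNA of whole tissue, fewer cells of a type and less RNA per cell cannot be told apart.

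**Figure D2:**
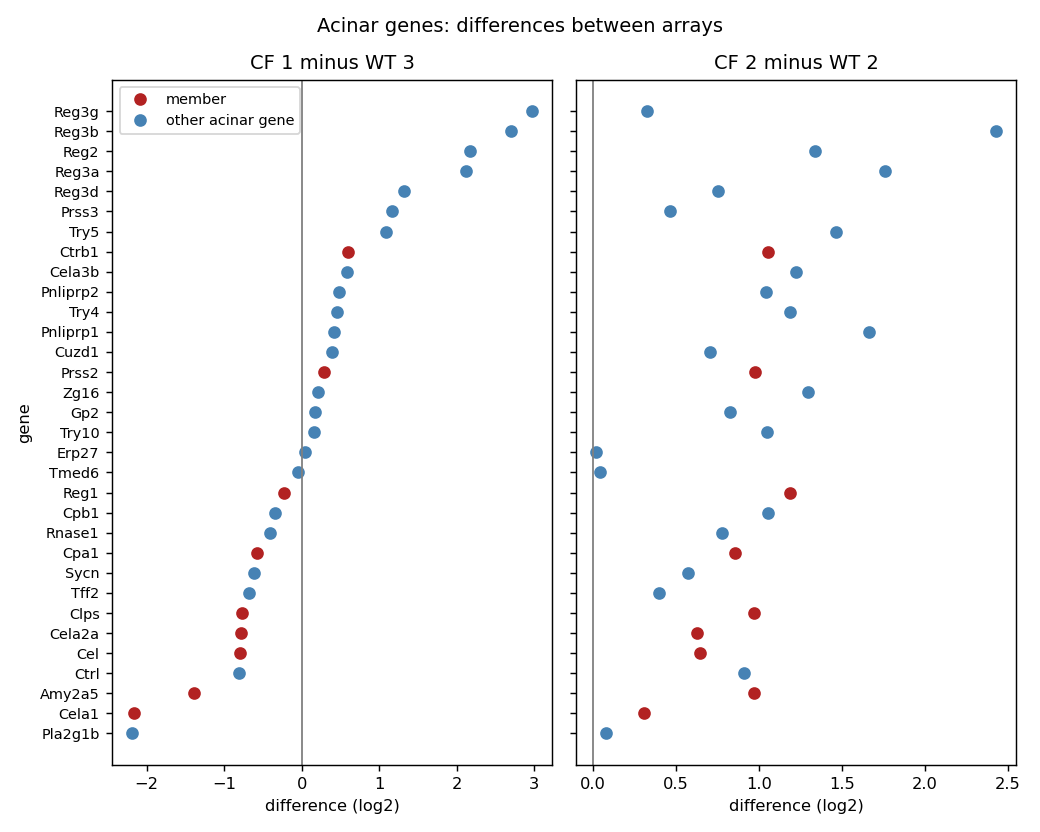
Difference in log2 level between arrays for each member (red) and each other acinar gene with a range of at least 1 and r over 0.5 to the member level (blue), CF 1 minus WT 3 on the left and CF 2 minus WT 2 on the right, with values under background raised to it. Positive values mark genes higher in the CF array of the pair, and Cela1 is the lowest member in CF 1 minus WT 3, at -2.16, and Reg3g is at least 2.98.

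The genes spread far more than most of the array. Their range over the 8 arrays was 4.67 to 6.60 log2 units, against a median of 0.315 for all probes, and the SD within genotype was 1.49 to 2.61, against a median of 0.0997. All 11 probes were among the 50 of the 25697 with the largest SD within genotype, and 18 further places in that 50 were held by other acinar genes. These ranks belong to the pattern that chose the genes.

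The members also varied together. Over the 36 pairs of genes, Pearson's r across the 8 arrays had a median of 0.965 and ran between 0.797 and 0.999, and Spearman's rho had a median of 0.952, between 0.667 and 1. The points of each pair share the same arrays and RNA, and no p is given. With the genotype means removed the median r was 0.966. Without CF 1 and WT 3, the arrays that stood apart, the median over the other 6 was 0.970, but the lowest pair dropped to 0.220, Cela1 with Amy2a5. Cela1 followed the other genes least, with a median r of 0.839 over 8 arrays and 0.647 over 6, and Amy2a5 came next, with 0.882 and 0.658. The other 7 genes had a median r of 0.968 to 0.987.

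**Figure D3:**
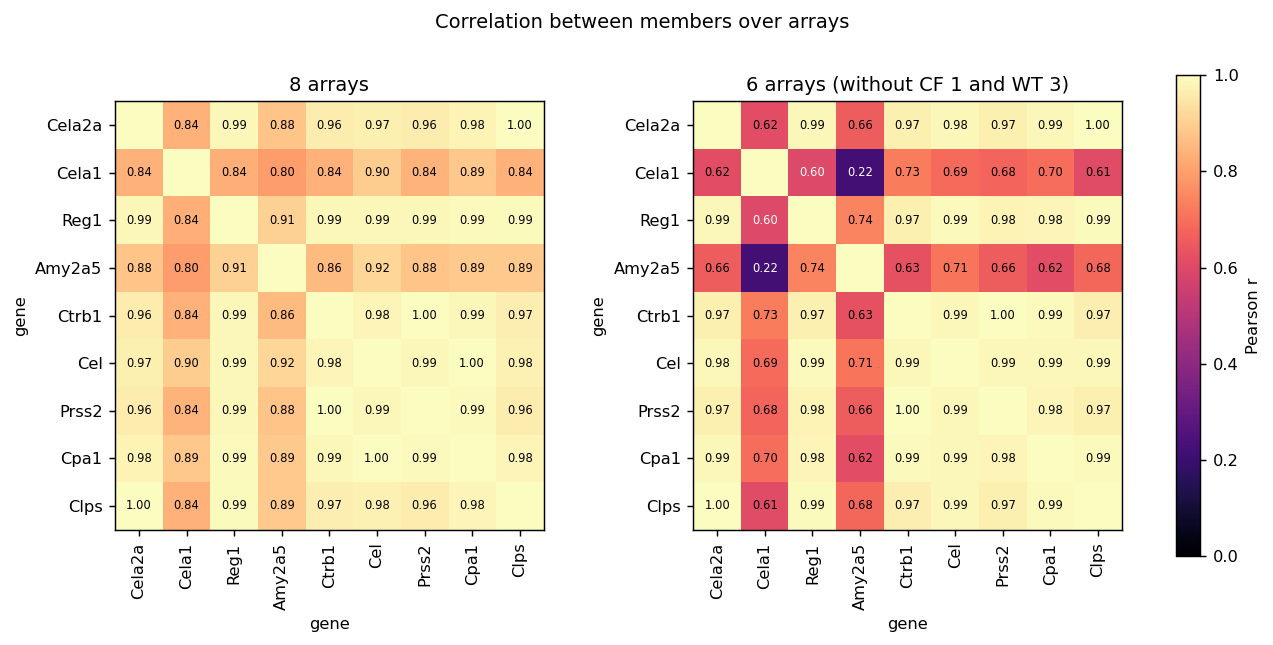
Pearson's r between each pair of the 9 genes, over all 8 arrays and over the 6 arrays without CF 1 and WT 3. Cela1 and Amy2a5 form the darker rows and columns, and their own pair is the lowest, at 0.220 over 6 arrays.

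No genotype difference was found in these transcripts. Cela2a averaged 10.96 ± 2.08 in CF and 10.77 ± 2.67 in WT livers (SD, n = 4 each), a difference of 0.19 ± 1.33 SE. Reg1 averaged 10.40 ± 2.23 in CF and 9.90 ± 2.55 in WT, Ctrb1 9.22 ± 2.71 in CF and 8.72 ± 2.49 in WT, and Clps 9.78 ± 2.19 in CF and 9.51 ± 2.75 in WT. Cela1 had the largest difference, with 9.90 ± 1.22 in CF and 10.83 ± 1.71 in WT, -0.93 ± 0.83 SE (limma with Benjamini-Hochberg adjustment over all probes, adjusted p = 0.623). Each of these differences was smaller than the spread within a genotype. By limma 0 of 11 member probes passed an adjusted p of 0.05, against 8.99% of all probes (2311 of 25697), and 0 had an unadjusted p under 0.05. Adjusted p ranged between 0.623 and 0.988. In 0 of 9 genes were the CF and WT arrays separated, while 13.9% of all probes had genotypes that did not overlap. The median difference of the 11 probes was 0.27, and that of all probes 0.0044.

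The precision behind this was low, and as the genes were chosen for their spread within a genotype, a large SE and few calls follow from the choice; nothing is read from the count. The SE of a member's difference was 0.827 to 1.45 on the log2 scale, against a median SE of 0.0703 for all probes, so with 4 arrays each, a difference of 1 log2 unit could not be told from 0. In 8 of 9 genes, all but Cela1, the sign of the difference turned when some single array was left out. Without WT 3 the CF minus WT difference of Cela2a was 1.30, and without WT 4 it was -0.82. Without both CF 1 and WT 3 the differences were 0.51 for Cela2a and -0.52 for Cela1, and again 0 of 11 probes passed.

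The rest of the acinar programme was read from 2 further lists, 18 other acinar enzymes and 24 genes of secretory granules, secreted proteins and acinar regulators. Of the 13 measured enzymes, 12 had CF 1 and WT 3 as their 2 highest arrays, and 10 correlated with the member level at r of at least 0.9. Of the 22 measured genes of the second list, 14 had that pair on top, 11 of these with a range of at least 1 log2 unit. Of the same 22, 10 reached r of 0.9, 9 of these with that range. Others did not follow. Cldn10 (r = -0.32) and Dnase1 (r = -0.50) were highest in WT 4, at 10.18 and 8.49, and Spink1 had r of 0.35. Across the array, 305 of the 15524 probes above background on at least 1 array had CF 1 and WT 3 on top, 1.96%. Among the 1298 probes with a range of at least 1 log2 unit it was 3.78%, rank 10 of the 28 possible pairs. The genes were chosen with these results known, so these counts describe the pattern.

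By likeness to the member level, among probes with a range of at least 1, the 10 nearest genes, predicted gene names left out, were Ctrl, Cpb1, Rnase1, Try10, Zg16, Try4, Tff2, Cela3b, Gp2 and Sycn, with r of 0.999 for Ctrl down to 0.978 for Sycn over 8 arrays. All 10 belong to the 2 acinar lists, while the predicted genes Gm5771 (r = 0.989) and Gm5409 (r = 0.984), which are in neither list, came closer than Cela3b. Ctrl, a chymotrypsin-like protease, stood at 11.40, 9.81, 7.96 and 7.03 in CF and 7.89, 8.90, 12.21 and 6.59 in WT livers. Try4, a trypsin, had the largest SD within genotype of all probes, 2.78, at 13.29, 10.42, 7.94 and 7.04 in CF and 7.90, 9.23, 12.83 and 6.36 in WT livers. Both were high in CF 1 and WT 3 and low in CF 4 and WT 4. At the other end, Id3, an inhibitor of helix-loop-helix factors, had the lowest r, -0.72, and 0 probes reached -0.9. In all, 29 further probes had a range of at least 1 and r of at least 0.9, of which 25 carried a gene name and 20 were in the acinar lists.

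Some genes of the regenerating family were higher in CF 1 than in WT 3, though Reg1 was not. The direction was not particular to this family. Prss3 (1.17), Try5 (1.08) and Cela3b (0.58) were also higher in CF 1, while Ctrl (-0.81), Cpb1 (-0.34) and Rnase1 (-0.41) were lower. Reg3b, an antibacterial lectin induced in injured or inflamed pancreas and gut, stood at 12.86, 10.06, 6.47 and 6.32 in CF and 6.54, 7.63, 10.17 and 5.99 in WT livers. Reg3a stood at 12.18, 9.55, 6.56 and 6.33 in CF and 6.68, 7.79, 10.06 and 6.20 in WT livers, and Reg2 at 12.51, 9.56, 6.91 and 6.62 in CF and 7.23, 8.22, 10.33 and 6.33 in WT livers. For these 3 genes CF 1 exceeded WT 3 by 2.70, 2.12 and 2.18, and CF 2 exceeded WT 2 by 2.43, 1.76 and 1.34, whereas CF 1 was below WT 3 in 7 of the 9 members and CF 2 was above WT 2 in all 9, by 0.31 to 1.19. Whether these genes differed from the members in this was not tested. Their CF minus WT differences did not pass (Reg3b 1.35 ± 1.43 SE, limma with Benjamini-Hochberg adjustment, adjusted p = 0.695), and with the member level as a covariate, a fit read for these genes after the data were seen, Reg3b had 1.15 ± 0.55 SE (adjusted p = 0.295). The gap between CF and WT arrays of neighbouring member level rests on these 4 arrays. CF 2 was 0.84 above WT 2 in member level, and CF 1 was 0.65 below WT 3.

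Among members and list genes together, the covariate fit called 2 of 35 other acinar genes and 1 of 11 member probes, against 8.64% of all probes. The counts are near that share, and the covariate is made of genes chosen for their levels on these arrays. No genotype result is read from them. Pnliprp1, a pancreatic lipase-related protein, stood at 13.06, 11.43, 10.27 and 9.13 in CF and 8.95, 9.77, 12.64 and 7.46 in WT livers. At equal member level it was higher in CF by 1.11 ± 0.11 SE (limma with Benjamini-Hochberg adjustment, adjusted p = 0.000686), and by 0.99 to 1.17 with each array left out. Without the covariate its genotypes overlapped, and it was singled out after its values were seen. Cela1, the member called, had a CF minus WT difference of -1.05 ± 0.26 SE in the same fit. Its own values are part of the member level and helped choose the genes, so the difference is a description and not a test. Against a level without Cela1 the difference was -1.13, and -1.31 to -0.80 with each array left out. Nr5a2, an orphan receptor of acinar cells that hepatocytes also use, averaged 7.98 ± 0.15 in CF and 8.28 ± 0.06 in WT livers (SD, n = 4 each). It was the 1 of 35 other acinar genes called without the covariate, -0.29 ± 0.08 SE (limma with Benjamini-Hochberg adjustment, adjusted p = 0.0437), and its r to the member level was 0.21. The call was lost in 7 of 8 fits with 1 array left out, and with a replicate block, a floor at background, a trended robust prior or array weights.

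**Figure D4:**
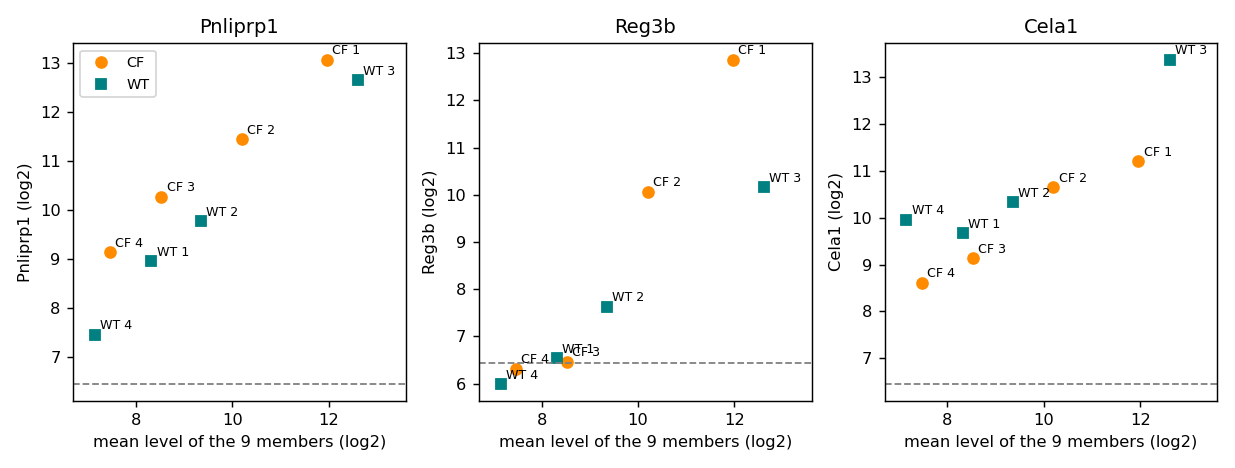
Log2 levels of Pnliprp1, Reg3b and Cela1 on each array against the member level of that array, with CF arrays as circles, WT arrays as squares and the background level as a dashed line. The 4 CF arrays lie above the course of the WT arrays for Pnliprp1 (difference 1.11 at equal member level), CF 1 and CF 2 lie high for Reg3b, and WT 3 and WT 4 lie high for Cela1.

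Transcripts of the acinar regulators were near the limit of detection. Ptf1a, the helix-loop-helix factor of PTF1, was under background on all 8 arrays, at 5.96 to 6.25 in CF and 5.91 to 6.33 in WT livers. Rbpjl, its partner, reached 6.86 in CF 1 and 6.88 in WT 3, and Bhlha15, which builds the secretory apparatus, reached 6.90 in CF 1 and 6.85 in WT 3. Both peaked on the arrays with the highest member level, but by less than 0.5 log2 units over background.

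Other cell types of the pancreas and its neighbours were read from lists of their markers. Of 14 islet genes measured, 3 had a range of at least 1, and 2 of these had CF 1 and WT 3 on top. Ins2, insulin, stood at 9.13, 6.97, 6.36 and 6.22 in CF and 6.32, 7.27, 8.81 and 6.27 in WT livers, and Gcg, glucagon, at 8.12, 6.19, 6.29 and 6.24 in CF and 6.02, 6.36, 7.60 and 6.12 in WT livers. Both hormones were clearly above background in CF 1 and WT 3. The remaining gene of that range, Chgb, a granin of endocrine cells, went the other way. It was lowest in WT 3 (6.05) and highest in WT 1 (7.81), with r of -0.52 to the member level. Chga (r = -0.28) did not follow the member level either, and Iapp (r = -0.06) was nearly level, at 6.81 to 7.175 in CF and 6.77 to 7.01 in WT. Of the 14, 9 were above background on at least 1 array, so the islet markers were mixed and partly undetected. Chgb was above background on the same arrays as the adrenal gene Cyp11b1, given below, and its source was not tested. Duct markers did not follow: 0 of 8 measured had that pair on top, and Krt19 stayed at 6.61 to 6.87 in CF and 6.65 to 6.82 in WT livers. These Krt19 values lie near background, Cftr lay under it, and 1 of the 8 had a range of at least 1. The count therefore cannot exclude duct transcripts. For the intestine 0 of 14 had the pair on top, and Fabp2, the enterocyte fatty acid-binding protein, was under background on all arrays. It was 1 of 11 for the stomach and salivary lists each. Above background on at least 1 array were 11 intestinal, 6 stomach and 2 salivary genes. The order of arrays under background carries little, so these counts do not compare with those of the acinar lists. Of the spleen, lymphoid and blood list, 3 of 8 had the pair on top, Cd79a, Cd79b and Cd3e, with ranges of 0.33, 0.53 and 0.22. In these last 3 lists no gene had a range of at least 1.

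**Figure D5:**
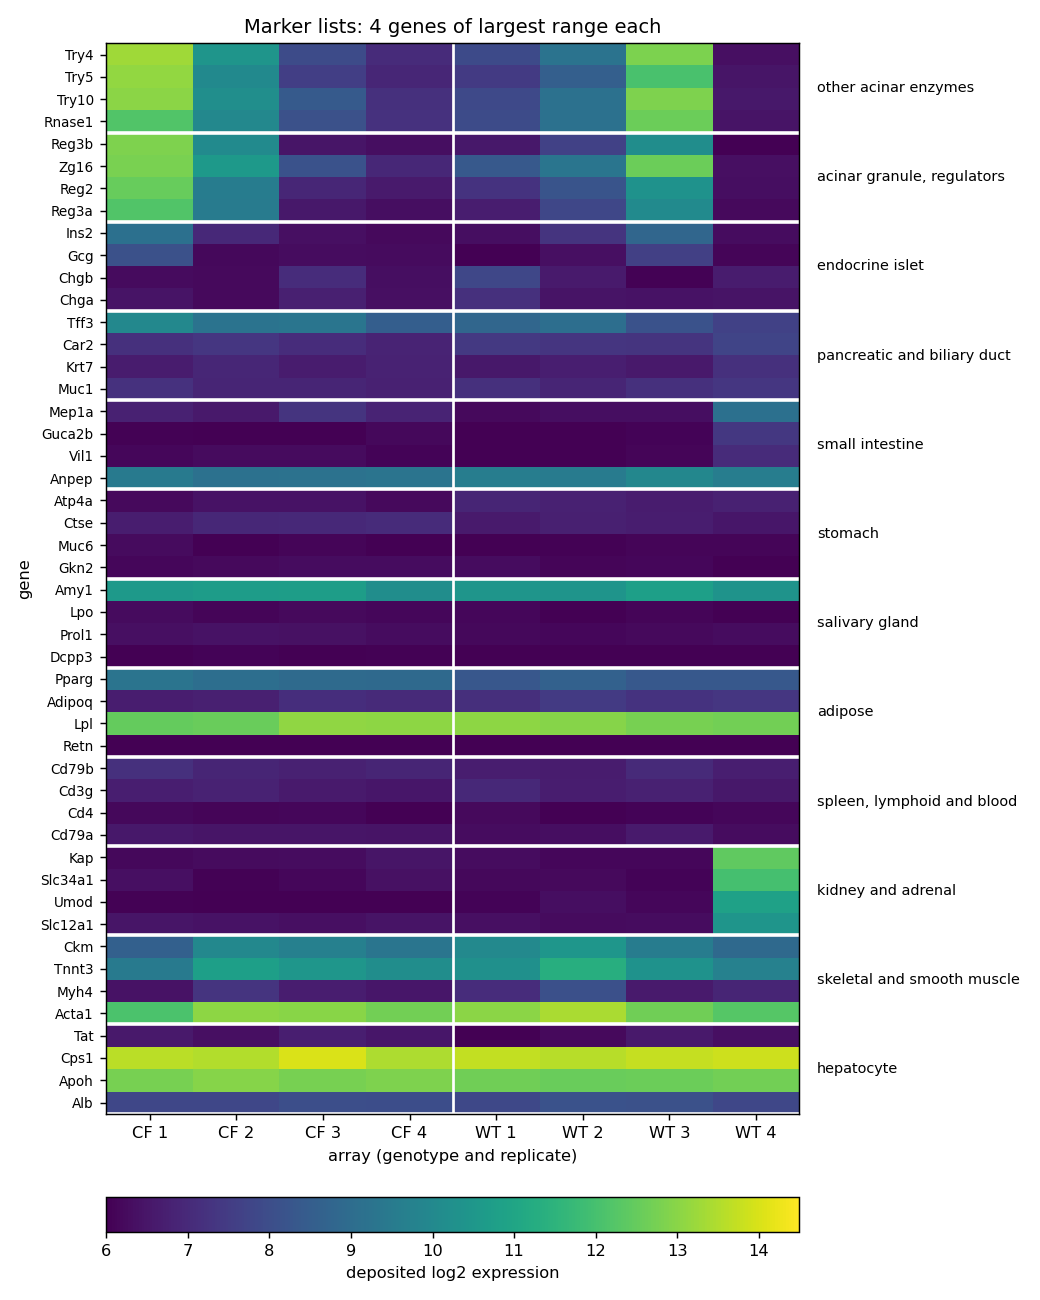
Log2 level, as colour, of the 4 genes of widest range in each marker list (rows) on the 4 CF and 4 WT arrays (columns). Trypsins and other acinar genes are bright in CF 1 and WT 3, Kap, Slc34a1, Umod and Slc12a1 in WT 4 (12.42, 11.99, 10.85 and 10.45), and the hepatocyte genes are even across arrays.

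The kidney signal of WT 4 lay apart from the pancreatic one. Slc34a1, a phosphate transporter of the proximal tubule, was at 11.99 in WT 4, and Umod, uromodulin of the thick ascending limb, at 10.85. The mean of the kidney and adrenal list was 9.44 in WT 4, against 6.13 to 6.54 in CF and 6.13 to 6.61 in the other WT livers. Klk1, a kallikrein of the acinar enzyme list that kidney also makes, stood at 11.35, 8.71, 6.91 and 6.57 in CF and 6.91, 7.66, 10.62 and 11.81 in WT livers. Its top array was WT 4, followed by CF 1 and WT 3. The part of the kidney transcripts in the low member level of WT 4 was not tested.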

How the data were processed

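Total RNA of 4 CF and 4 WT whole livers was read on single-colour bead arrays with GenomeStudio, per the submitters' processing notes. The values used are the log2 signals the authors deposited, 25697 probes with 0 missing. The background correction and exact transform are not given in the sources used here. Sorted by size, the 8 arrays held the same values to within 0.000351, as quantile normalisation gives, so differences in total signal are lost. A scanner table with 8 signal columns was not used, as no label ties its columns to samples.

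Probes were named from the platform annotation. A gene is shown by its brighter probe, and the member level is the mean of the 9 genes. The background level is the mode of all values, 6.17, plus 1.645 times the spread below it, 0.168. Fold spans with an array under it are lower bounds. limma 3.58.1 in R 4.3.3 was fitted to all probes without a filter, since a filter would favour probes high in 1 group, with genotype as the term and Benjamini-Hochberg adjustment at 0.05, and was tested on simulated data. The members and lists were chosen with earlier results of these data known. Besides the members, the text names by rule up to 4 genes of widest range per list, the nearest and farthest by r, those of largest SD and some defining markers; other names were chosen after their values were seen. Alternatives were filters on dim probes, a replicate block, cyclic loess, a floor, another variance prior, array weights, other thresholds, arrays left out and the member level as a covariate.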

Additional observations from a re-analysis of the deposited data

Results flagged for a closer look

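A single array stood far from the other 3 of its genotype in 9 of the 86 groups examined, by a gap past Dixon's critical value for 4 samples. The groups were those of 43 genes in 2 genotypes, the genes named by rule with a range of at least 1 log2 unit. Other list genes were not examined. Chance alone flags about 1 in 20 groups of genes not chosen by their values; the genes examined had a range of at least 1 log2 unit, which a lone array can itself produce, so that rate does not apply to them as it stands. None of the 9 exocrine genes was among them, since their arrays ran in a graded series. In CF livers the islet gene Gcg was at 8.12 in CF 1, against 6.19 to 6.29 on the other CF arrays. Chgb, a granin of endocrine cells, was at 7.07 in CF 3, against 6.21 to 6.30 on the other CF arrays. It was not particular to CF 3, since Chgb was also above background in WT 1 (7.81), WT 2 (6.60) and WT 4 (6.65).

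The other 7 all lay in WT 4. The kidney transcripts Kap, Slc34a1, Umod and Slc12a1 were at 12.42, 11.99, 10.85 and 10.45 there, and at 6.34 or lower on the other WT arrays. Mep1a and Vil1, brush-border genes that kidney and intestine share, were at 9.13 and 7.04, and Guca2b at 7.37, against 6.31 or lower on the other WT arrays. Of the acinar list genes not examined, Cldn10 was at 10.18 and Dnase1 at 8.49 in WT 4. On the other WT arrays they stood at 6.46 to 6.83 and 6.18 to 6.28.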

How the results depend on the processing

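The order of the arrays by member level was the same in 11 of 12 alternative settings, the exception being Amy2a5 left out of the mean, and the 4 highest arrays were the same in 12 of 12. The median r between genes was 0.952 to 0.976 with 1 array left out. The count of member probes called, 0, was 1 with the member level as a covariate and 0 with any array left out. The count of other acinar genes called, 1, was 0 with a replicate block, a floor at background, a trended robust prior, array weights or an adjusted p of 0.01, 2 with the covariate, and 0 to 1 with 1 array left out (0 in 7 of 8 fits). The count of changed probes, 2311, was 1416 with a replicate block (1359 shared), 1151 with the floor, 979 at an adjusted p of 0.01, 1006 without CF 1 and WT 3, and 1514 (without WT 3) to 1924 with 1 array left out. The replicate block changed no member's call. Samples of equal number had deviations from their genotype mean correlated at -0.28, 0.07, -0.26 and 0.08. These values gave no sign that the numbers pair the samples. They cannot exclude a pairing, since differences between single livers, such as the kidney transcripts of WT 4, also enter them. Array weights turned the differences of Cel to -0.12 and of Cpa1 to -0.0543. With 1 array left out the CF minus WT difference ran between -0.82 and 1.30 for Cela2a, -0.41 and 1.64 for Reg1, -0.0717 and 1.48 for Amy2a5, -0.68 and 1.65 for Ctrb1, -0.76 and 1.19 for Cel, -0.53 and 1.54 for Prss2, -0.80 and 1.22 for Cpa1, -0.77 and 1.43 for Clps, and -1.37 and -0.09 for Cela1. None of the leave-one-out differences passed. Causes were not tested. The number of arrays and the background level limit all values, above all in WT 4.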

Other observations

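Some genes outside the acinar lists shared the pattern, and were chosen after their values were seen. Glycam1, a mucin-like ligand of lymph node vessels that milk also holds, was at 9.47 in CF 1 and 9.07 in WT 3, and at 6.12 to 6.28 on the other CF and 6.05 to 6.24 on the other WT arrays. Unlike the 9 members it had no intermediate values. Dmbt1, a scavenger receptor of epithelia, stood at 11.88, 9.86, 8.82 and 8.10 in CF and 9.52, 9.19, 10.93 and 8.86 in WT livers. Nupr1, a stress-induced nuclear protein abundant in injured pancreas, was at 9.53 in CF 1 and 9.26 in WT 3, and at 8.13 to 8.35 on the other CF and 8.13 to 8.51 on the other WT arrays.

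Cyp11b1, the adrenal steroid 11-beta-hydroxylase, split the arrays in another way, at 5.85, 5.92, 7.99 and 5.90 in CF and 8.21, 7.60, 5.87 and 7.51 in WT livers. It was under background on CF 1, CF 2, CF 4 and WT 3, and above it on CF 3, WT 1, WT 2 and WT 4. Chgb was above background on the same arrays. Pla2g1b, the secreted pancreatic phospholipase, was 2.19 lower in CF 1 than in WT 3, while Reg3g, under background in WT 3, was at least 2.98 higher in CF 1.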
